A study of Mus musculus with 27 samples.

Results

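Lung and lymph node, 2 of 9 tissues profiled on a custom array of glycan-related, cytokine and growth factor genes, were compared gene by gene. The comparison took the 3 lung arrays and the 3 lymph node arrays, 6 of 27 arrays in all, by the tissue that their labels name. Both groups came from wild-type C57BL/6 male mice, an inbred laboratory strain, at an age of 6 to 8 weeks, with no treatment beyond the wild-type state given. Total RNA was labelled with biotin and hybridised to the Affymetrix Glycov1 array, with 1 sample per array. Which lymph nodes were taken, and whether lungs were cleared of blood, is not given in the sources used here. Whether the 3 samples of each tissue were taken from different animals is not stated. The p-values below therefore cover only the spread between samples of a tissue, pooled over the 9 tissues. This spread may be technical. Each of 573 mouse genes is represented by 1 probe set, a group of short probes for the same transcript. A level is the deposited intensity on a linear scale, given as mean ± SD with n = 3 arrays per tissue. A difference is the mean log2 intensity in lung minus that in lymph node, with its standard error (SE) from limma, so positive values are higher in lung. A gene was called when its adjusted p was under 0.05 and its difference was at least 1 on the log2 scale, which is 2-fold.

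The lung exchanges gas across a thin layer of epithelium that lies against a very dense bed of capillaries, held in a matrix of elastic fibres and proteoglycans. Its epithelial cells secrete surfactant proteins, among them collectins that bind the sugars of microbes. The lymph node is built around lymphocytes, which enter through high endothelial venules when L-selectin binds sulphated, sialylated and fucosylated glycans on the vessel wall. Inside the node, stromal cells release chemokines that sort T cells and B cells into separate zones, and macrophages and dendritic cells with lectin receptors line the sinuses and the T cell zone. RNA of whole tissue mixes all of these cells. Fewer cells of a type and less RNA per cell therefore cannot be told apart in any result below.

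Over all probe sets, the median intensity ran from 224.7 to 236.7 on the 6 arrays. Across genes, arrays of the same tissue correlated with an r of 0.963 to 0.986, and lung arrays correlated with lymph node arrays with an r of 0.668 to 0.691. Genes are not independent replicates, and these values carry no test. No 2 arrays held identical values. The markers went with the labels. All 3 measured lung epithelial markers were higher in lung, where their summed intensity ran from 11253 to 21170 against 1135 to 1194 in lymph node. For the 5 measured T cell markers the sum was 7805 to 8524 in lymph node and 1428 to 1793 in lung. Human probe sets on the same arrays had a median intensity of 197.0 and a 95th percentile of 570.7, and serve as a rough scale for non-specific signal. A level within that range may be non-specific in part, and a fold against it is a ratio of intensities.

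In all, 45 genes (7.85% of the 573 tested) were higher in lung and 55 (9.6%) were higher in lymph node, so 17.5% were called in either direction. The median difference over all genes was -0.01. A further share differed by less than 2-fold: 254 genes had an adjusted p under 0.05 at any size, 136 of them higher in lung and 118 higher in lymph node. On the lymph node side 25 genes reached 4-fold and 10 reached 8-fold, against 15 and 4 on the lung side. All 45 genes called higher in lung had their 3 lung arrays above their 3 lymph node arrays, an order that 29.7% of all genes showed. Of the 55 called higher in lymph node, 54 had the opposite order (26.4% of all genes), the exception being Clec4a2. In the lower tissue, 38 of the 45 and 45 of the 55 genes lay under the 95th percentile of the human probe sets, while 7 and 10 lay above it in both tissues. Of the 38 and 45, 10 genes higher in lung and 13 higher in lymph node lay under it in both tissues. The median over all mouse genes on the 6 arrays was 317.9, so most values of all genes lay under that percentile too.

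**Figure D1:**
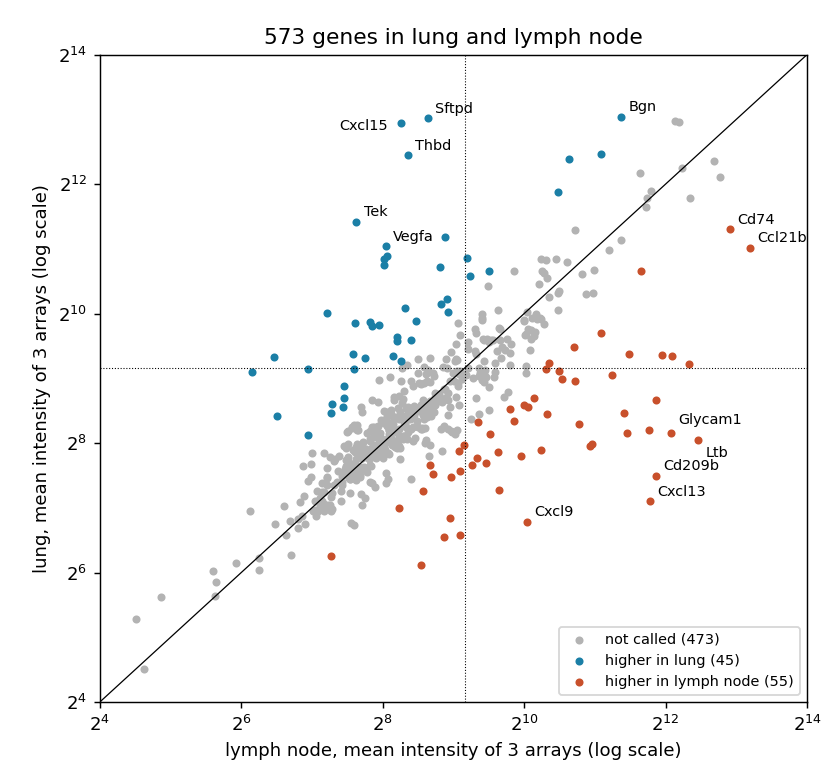
Mean intensity of 3 arrays in lymph node (horizontal, log scale) against lung (vertical, log scale) for 573 genes, with the 45 genes called higher in lung in blue, the 55 called higher in lymph node in red and the other 473 in grey. The diagonal marks equal levels, and the dotted lines mark 570.7, the 95th percentile of human probe sets on the 6 arrays. Most coloured points sit beyond the dotted line in only their higher tissue.

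Genes of the lung epithelium held the largest differences on the lung side. Cxcl15, a chemokine made by airway epithelium and also known as lungkine, read 9172, 10096 and 4390.3 on lung replicates 1, 2 and 3 and 331, 305 and 280.3 on the lymph node arrays. The lung arrays stood far above the lymph node arrays, although replicate 3 was well below its companions. The difference was 4.60 ± 0.20, or 24.3-fold (limma adjusted p = 1.82e-15). Sftpd, surfactant protein D, is a collectin of the alveolar lining fluid. It read 9299, 9354 and 6282 in lung and 352, 440.4 and 408 in lymph node, a 20.5-fold difference (4.36 ± 0.14, adjusted p = 8.73e-18). The groups were again far apart with lung replicate 3 the lowest of its tissue. A second Sftpd probe set read 8280.1 ± 639 in lung and 52.3 ± 12.2 in lymph node, a 161-fold difference, and the mean of both probe sets gave 57.5-fold. Muc1, a transmembrane mucin of epithelial surfaces, read 1094, 1720.4 and 581 in lung and 511, 405 and 447 in lymph node. Its lung arrays varied widely, and the lowest was only slightly above the highest lymph node array (1.19 ± 0.28, 2.28-fold, adjusted p = 0.0011). The Muc1 call was lost without lung replicate 2 (0.82), and the mean of its probe sets gave 5.04-fold. Claudin gene Cldn7, which seals epithelial tight junctions, was 7.23-fold higher in lung, at 642 ± 151 in lung and 88 ± 15.2 in lymph node. All 3 epithelial markers were lowest on lung replicate 3 and highest on replicate 2, and this order was noticed after the values were seen.

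Most measured endothelial markers were higher in lung. Of 9 measured endothelial markers, 7 were higher in lung and none was higher in lymph node, against 7.85% and 9.6% of all genes, with a median difference of 1.75. Thbd, thrombomodulin, the endothelial receptor that turns thrombin toward anticoagulant activity, read 5625, 4464 and 6689.6 in lung and 320.5, 355 and 307 in lymph node, or 16.9-fold (4.08 ± 0.14, adjusted p = 1.24e-17). Tek, the angiopoietin receptor TIE2, read 2504, 2530.0 and 3166 in lung and 191, 192 and 211 in lymph node, or 13.8-fold (3.78 ± 0.13, adjusted p = 2.59e-17). Both genes had tight lymph node arrays and no overlap between tissues. Acvrl1, the endothelial BMP9 receptor ALK1, read 2009, 1543 and 1965 against 243, 245 and 292, a 7.05-fold difference. The general endothelial surface proteins were higher by smaller factors. Cd34 was 3.41-fold higher, Icam2 3.36-fold, Pecam1 3.22-fold and the sialomucin Emcn 2.50-fold. The exceptions were Sele (384 ± 50.6 in lung and 373 ± 21.8 in lymph node) and Selp (346 ± 15 in lung and 338 ± 20.9 in lymph node), selectins that endothelium displays upon activation, which overlapped between tissues. The summed intensity of the 9 markers was 17921 to 22755 in lung and 4219 to 4624 in lymph node. Within lung, 5 of the 7 called markers were highest on replicate 3, the array on which the epithelial markers were lowest.

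Of 7 measured ligands that act on endothelium 3 were higher in lung, against 7.85% of all genes. Of their receptors only Tek, which binds angiopoietins, was measured. Vegfa, the main growth factor of blood vessels, read 2672, 1689 and 1946 in lung and 306, 280.5 and 208 in lymph node, or 7.90-fold (2.98 ± 0.20, adjusted p = 7.88e-12). Vegfd, which acts on lymphatic and blood vessels, was 3.40-fold higher in lung. A second Vegfd probe set gave 1.82-fold (0.86 ± 0.16) and was not called. Angpt1, the activating ligand of TIE2, was 2.46-fold higher in lung (388 ± 79.7 in lung and 156 ± 12.3 in lymph node). No array of these 3 ligands overlapped between the tissues. Vegfc differed by 0.85 ± 0.11 with separate arrays but stayed under 2-fold, as did Angpt2 (0.38 ± 0.10). Vegfb (0.07 ± 0.14) and Angpt4 (0.19 ± 0.34) had overlapping arrays. Thus 4 of the 8 measured genes of the system were called, each of them higher in lung.

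Growth factor genes were called mostly on the lung side. Over 6 lists of growth factor systems, the endothelial one included, with 115 measured genes, 17 (14.8%) were higher in lung and 1 (0.87%) was higher in lymph node, against 7.85% and 9.6% of all genes. The median difference of these genes was 0.22. The sums of epithelial and endothelial markers were higher in lung as well, and their part in these results was not tested. In the TGF-beta and BMP system 5 of 32 genes were called, all higher in lung. Bmp4, a morphogen of lung branching, read 936, 879.9 and 992 in lung and 245, 192 and 243 in lymph node (4.15-fold, adjusted p = 7.3e-11). Its relatives Bmp6 (3.76-fold) and Bmp5 (2.19-fold) were also higher, and among receptors Bmpr2, the type II partner of ALK1, was 2.27-fold higher at 353 ± 40.4 in lung and 155 ± 3.9 in lymph node. The Bmp5 call was lost without lymph node replicate 2 (0.99). The 3 measured extracellular inhibitors of the system, Nog, Chrd and Fst, were not called by limma (1 at an unadjusted p under 0.05), with differences of -0.07, -0.04 and 0.25. Tgfb1, the immune-regulating TGF-beta, had overlapping arrays at 500.3 ± 204 in lung and 679.6 ± 203 in lymph node.

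In the Wnt system 2 of 8 receptors were called, both higher in lung, against 7.85% of all genes. They were the only calls among the 22 measured genes of the system, against 17.5% of all genes called in either direction. Fzd4, a frizzled receptor of vessels, read 928, 1941 and 2282 in lung and 260.4, 272 and 247 in lymph node. Lung replicate 1 was low among the lung arrays, yet all 3 stayed above the lymph node arrays (6.17-fold, 2.62 ± 0.21). Fzd2 was 2.68-fold higher in lung. Fzd7 ran the other way at 364 ± 8.9 in lung and 722 ± 109.6 in lymph node, a difference of -0.98 ± 0.12 that fell just short of 2-fold and was called when lymph node replicate 1 (-1.07) or 2 (-1.01) was left out. None of the 14 measured Wnt ligands was called by limma, with 3 at an adjusted p under 0.05 (5 unadjusted). Their differences stayed under 2-fold, running from -0.30 (Wnt1) to 0.39 (Wnt2). Among 26 fibroblast growth factor genes only Fgf1 was called, with 1059, 877 and 784 in lung and 223, 254 and 262 in lymph node (3.66-fold). Fgf7, a mesenchymal factor for epithelium, had separate arrays but stayed under 2-fold (0.85 ± 0.10). Fgf10, which drives lung budding in the embryo, differed by 0.25 ± 0.15 with an adjusted p of 0.202.

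Of 7 measured genes of the insulin-like growth factor system, 1 of 2 ligands was higher in lymph node. The 1 receptor and 2 of 4 binding proteins were higher in lung. Over all genes the shares were 9.6% and 7.85%. The ligand Igf1 was higher in lymph node, with 232, 236 and 199 in lung and 769, 1060.3 and 1156 in lymph node (4.42-fold, -2.14 ± 0.19, adjusted p = 9.57e-10). The other ligand, Igf2, was not called, with all lung arrays above the lymph node arrays (0.33 ± 0.12, adjusted p = 0.025). The receptor Igf1r was higher in lung at 760.1 ± 255 in lung and 296 ± 75.7 in lymph node (2.53-fold), and so were the binding proteins Igfbp2 and Igfbp5, which hold the ligand outside cells. Igfbp1 (-0.30 ± 0.15) and Igfbp3 (0.12 ± 0.27) were not called. Igfbp2 read 1865, 2017 and 1812 in lung and 240.2, 292 and 269 in lymph node, or 7.12-fold (adjusted p = 2.17e-16). The Igf1r call rests on its chosen probe set: a second one read 387 ± 86.2 and 373 ± 40.9, and the mean of the probe sets gave 1.61-fold with no call. The Igfbp5 call (1.07 ± 0.19) was lost without lung replicate 2 (0.80) or lymph node replicate 2 (0.92).

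On the list of EGF and other growth factors, 2 of 20 measured genes were called, both higher in lung, against 7.85% of all genes. They were Pdgfra and Pdgfb. Kitl and Kit, counted with the cytokines below, were higher in lung as well. Kitl, stem cell factor, read 2381, 2365 and 2209 in lung and 538, 483 and 395 in lymph node (4.95-fold, adjusted p = 9.74e-12), and its receptor Kit, carried by mast cells and some progenitors, was 2.27-fold higher at 774 ± 126 in lung and 338 ± 8.3 in lymph node. Pdgfra, a platelet-derived growth factor receptor of mesenchymal cells, read 558, 564 and 575 in lung and 131, 127 and 112 in lymph node (4.59-fold), and the ligand Pdgfb was 2.26-fold higher. The SDs of Pdgfra were small in both tissues. Pdgfrb, the receptor of pericytes, differed by 0.92 ± 0.12, under 2-fold. Pdgfc, another ligand of the family, ran the other way under 2-fold with separate arrays (-0.485 ± 0.12). It read 148 ± 16.3 in lung and 207 ± 27.3 in lymph node.

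**Figure D2:**
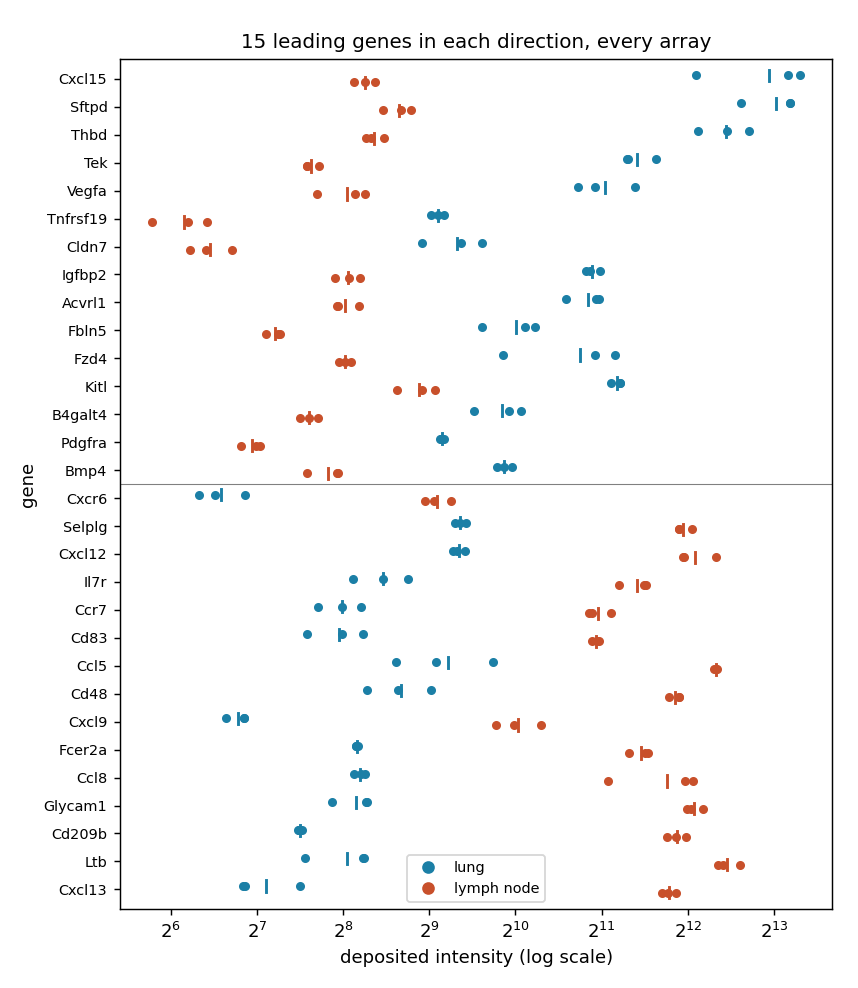
Deposited intensity (horizontal, log scale) on every lung array (blue) and lymph node array (red) for the 15 genes with the largest difference in each direction, with a bar at the mean of 3 arrays. No gene shown has overlapping groups, and lung replicate 3 is the low lung point of Cxcl15 (4390.3) and Sftpd (6282).

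Among the chemokines that organise lymphoid tissue, 3 of 9 ligands and 4 of 9 receptors were higher in lymph node, and 2 ligands were higher in lung. Over all genes, 9.6% were higher in lymph node and 7.85% in lung. Cxcl13, which draws B cells into follicles, read 116, 181 and 115 in lung and 3333, 3730.1 and 3507 in lymph node. With 1 probe set per gene this was the largest difference of the 573 genes, though averaged probe sets gave more for Sftpd (5.84). It was -4.71 ± 0.15 or 26.2-fold (adjusted p = 8.26e-18). Its receptor Cxcr5, carried by B cells and follicular helper T cells, was 4.96-fold higher in lymph node at 94 ± 10 in lung and 465 ± 11.4 in lymph node. Ccl21b is one of the genes for CCL21, a chemokine of T cell zones. It read 2023, 2335 and 1864 in lung and 10601, 8909 and 8623 in lymph node (4.52-fold). It has near-identical gene copies that the probe set may not separate. Its receptor Ccr7 on naive T cells and mature dendritic cells read 254, 296 and 209 and 1855, 2201 and 1903 (7.90-fold, adjusted p = 1.82e-15). Cxcl12, a retention signal for leukocytes in many tissues, was 6.66-fold higher in lymph node at 648 ± 33.1 in lung and 4349 ± 673 in lymph node. The ligands higher in lung were Cxcl14 (3.81-fold, 899 ± 228 in lung and 231 ± 2.7 in lymph node), an epithelial and fibroblast chemokine, and Cx3cl1 (2.36-fold), the membrane-bound fractalkine of endothelium and epithelium. With its probe sets averaged, Cxcl14 gave 6.53-fold. The fractalkine receptor Cx3cr1 was not called (-0.27 ± 0.10). The 4 receptors higher in lymph node were Ccr7, Cxcr5, Cxcr6 (5.72-fold) and Ccr6 (4.35-fold). Of the 5 measured stroma markers of the lymph node, the third called member beside Cxcl13 and Ccl21b was Vcam1 (2.62-fold), an adhesion molecule, and its call was lost with quantile normalization (-0.95).

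Of 20 measured ligands on the inflammatory chemokine list, 6 were higher in lymph node and 2 in lung, against 9.6% and 7.85% of all genes. Ccl8, a monocyte-directed ligand, read 278, 295 and 306 in lung and 2152, 4011 and 4270.1 in lymph node (11.4-fold, -3.51 ± 0.18, adjusted p = 3.59e-14), with lymph node replicate 1 well under the other lymph node arrays and still far above lung. Cxcl9 and Cxcl10, ligands of CXCR3 on activated T cells, were 9.44-fold and 4.96-fold higher. Cxcl11, another ligand of that receptor, ran the other way under 2-fold, with 216, 222 and 195 in lung and 142, 165 and 167 in lymph node (0.42 ± 0.14, adjusted p = 0.0158). Cxcl10 read 536, 1068 and 787 in lymph node and 154, 151 and 158 in lung. The receptor Cxcr3 itself was not called, at 819 ± 87.6 in lung and 1044 ± 22 in lymph node. Ccl5, made by T cells and NK cells, read 539.9, 393 and 857 in lung and 5076, 5137 and 5194 in lymph node (9.07-fold), and the mean of its probe sets gave 4.32-fold. Ccl12 (2.80-fold) and Ccl7 (2.10-fold), ligands of CCR2, were higher with that receptor, Ccr2 (2.83-fold, 189 ± 26.5 in lung and 547 ± 152 in lymph node). The Ccl7 call was lost without lymph node replicate 2 (-0.65), the highest array of the gene, and with quantile normalization (-0.98). With receptors included, 7 of 27 measured genes on the list were thus higher in lymph node and 2, Cxcl15 and the platelet chemokine Pf4 (2.03-fold), were higher in lung. The Pf4 call lay near the threshold and was lost without lung replicate 3 (0.94) or lymph node replicate 1 (0.89). Lymph node replicate 1 was the lowest lymph node array for 6 of the 7 genes higher there. The neutrophil-directed Cxcl1, Cxcl2 and Cxcl5 were not called, with differences of -0.69, -0.39 and -0.58. None of the 7 measured neutrophil markers was called by limma either (1 at an adjusted p under 0.05, under 2-fold). Their sums overlapped (2933 to 3730 in lung, 3161 to 3624 in lymph node). Cxcl1 was called when lymph node replicate 3 was left out (-1.13).

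Most measured T cell and B cell markers were higher in lymph node, against 9.6% of all genes. The lymphocyte marker sums moved with the genes below that were higher in lymph node, and against those higher in lung. The part of these sums in the results was not tested. The B cell marker sum, of which Cd22 made up a large part in both tissues, was 15240 to 17449 in lymph node and 6706 to 8864 in lung. Ltb, lymphotoxin beta, with which lymphocytes instruct stroma, read 300.4, 188 and 303 in lung and 6250.2, 5432 and 5223 in lymph node (21.8-fold, -4.45 ± 0.16, adjusted p = 2.59e-17). Its receptor Ltbr, found on stromal and epithelial cells, ran in the other direction at 635 ± 127 in lung and 215 ± 34.6 in lymph node, or 2.94-fold higher in lung (adjusted p = 1.41e-07). Lta, the partner subunit of Ltb, differed by -0.96 ± 0.12 with separate arrays and was called only when lung replicate 2 (-1.06) or lymph node replicate 2 (-1.02) was left out. Of 5 measured T cell markers 4 were called, all higher in lymph node: Ccr7, Il7r (7.76-fold), the survival receptor of naive T cells, Cd2 (4.58-fold) and the costimulatory receptor Cd27 (2.83-fold). Il7r read 354, 429.8 and 278 in lung and 2869.7, 2929.8 and 2347 in lymph node. The fifth, Ccr9, differed by -0.43 ± 0.14. Of 5 B cell markers 4 were called: Fcer2a (9.79-fold), the low-affinity IgE receptor CD23, Cd72 (5.36-fold), Cxcr5 and Cd74 (3.07-fold), the invariant chain of MHC class II. Fcer2a read 284, 283 and 289.5 in lung and 2965, 2547 and 2902 in lymph node, with a very narrow spread in lung. The fifth was Cd22, the B cell Siglec, and its 2 probe sets disagreed. The brighter one, chosen by the rule, read 4873 ± 619.5 in lung and 4834 ± 304 in lymph node (0.01 ± 0.20, adjusted p = 0.981) and between 2086.4 and 5423 in each of the 9 tissues, brain included. The other read 84.3 ± 17.9 in lung and 850.2 ± 83.6 in lymph node, or 10.2-fold higher in lymph node (-3.35 ± 0.17), with 838 in spleen and at most 130.1 in the other 6 tissues. The mean of both gave -1.67, so the sign for Cd22 turns with the probe set. Among 3 NK markers, Klrd1 (3.40-fold) was called, and Klrk1 (-0.63 ± 0.14) and Klrc1 (-0.15 ± 0.15) were not.

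Of 16 measured TNF family receptors and costimulatory molecules 4 were higher in lymph node and 3 in lung, against 9.6% and 7.85% of all genes. The lymph node set was Cd83, Cd2, Cd27 and Tnfrsf1b (2.92-fold), the TNF receptor of leukocytes. Cd83, a protein of mature dendritic cells and activated B cells, read 253, 300.4 and 191 in lung and 1978, 1894 and 2009.8 in lymph node (8.04-fold). In lung the set was Tnfrsf19, Ltbr and the death receptor Fas (2.67-fold, 942 ± 68 in lung and 354 ± 37.2 in lymph node). Tnfrsf19, also known as TROY, read 549.8, 578 and 519 in lung and 55.2, 73.2 and 85.7 in lymph node (7.81-fold), where the lymph node levels were among the human probe sets. Of 13 ligands, Ltb and Cd48 (9.30-fold), an adhesion partner of CD2 family proteins, were called and higher in lymph node. The B cell survival factor Tnfsf13b was higher on all lung arrays but stayed under 2-fold (0.58 ± 0.12).

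Of 53 measured interleukins, cytokines and their receptors, 4 were higher in lymph node and 2, Kitl and Kit, in lung, against 9.6% and 7.85% of all genes. Il16, a chemoattractant for CD4 T cells, read 241, 257 and 211 in lung and 1281, 1239 and 1114 in lymph node (5.13-fold). The receptors were Il7r, Il2rb (5.61-fold), the signalling chain for interleukins 2 and 15, and Il17ra (3.40-fold). Il2rb read 318, 298 and 323 and 1733, 1808 and 1730.5, with little spread in either tissue. The ligands Il7 (-0.29 ± 0.14) and Il15 (-0.83 ± 0.19) of these receptors were not called. Il10ra (-0.87 ± 0.14) stayed under 2-fold as well, and passed when lung replicate 3 was left out (-1.03) or with probe sets averaged (-1.02).

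**Figure D3:**
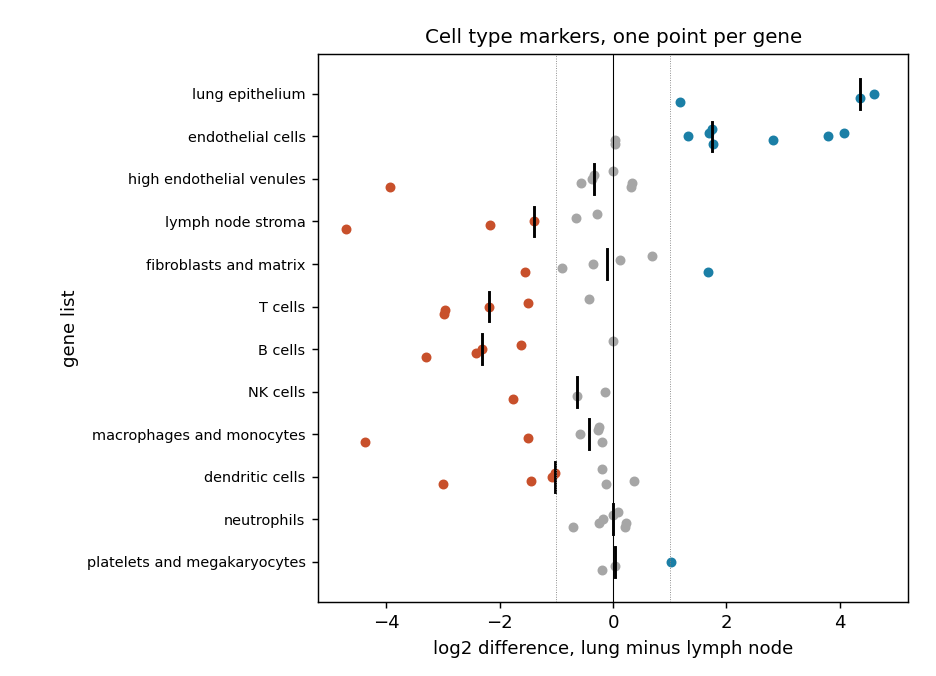
Difference on the log2 scale, lung minus lymph node (horizontal), for every measured gene of 12 cell type marker lists, with blue for called higher in lung, red for called higher in lymph node and grey for not called. The black bar is the list median and the dotted lines mark 2-fold; epithelial (4.36) and endothelial (1.75) medians lie to the right, T cell (-2.19) and B cell (-2.31) medians to the left.

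C-type lectin receptors of immune cells were called in 1 direction. Of 13 myeloid receptors 6 were higher in lymph node and 7 were not called, and of 9 lymphoid receptors 4 were higher there and 5 were not called, against 9.6% of all genes. Over all 35 measured C-type lectins and collectins, 10 were higher in lymph node and 2, Sftpd and Thbd, in lung. Cd209b, the SIGN-R1 receptor of lymph node and splenic macrophages for microbial sugars, read 184, 179 and 178 in lung and 3471, 4045 and 3713 in lymph node (20.7-fold, -4.37 ± 0.14, adjusted p = 8.26e-18). The lung arrays agreed closely and lay near the median of human probe sets. Its relatives Cd209e (2.46-fold) and Cd209d (2.02-fold) were also higher, whereas Cd209a (-0.19 ± 0.11) and Cd209c (-0.04 ± 0.14) were not called. The Cd209 genes are close relatives whose probes may share targets. Cd209d was lost without lung replicate 2 (-0.999) or lymph node replicate 1 (-0.92). Clec10a, a galactose-binding receptor of macrophages and dendritic cells, was 2.74-fold higher, with 414 ± 19.6 in lung and 1132 ± 42.5 in lymph node. Cd69 (2.80-fold), an early activation protein of lymphocytes, was called with Fcer2a, Cd72 and Klrd1. Ly75, the endocytic receptor DEC-205, was 2.03-fold higher at 76 ± 12.2 in lung and 155 ± 30.7 in lymph node, and its call was lost without lung replicate 3 (-0.88) or lymph node replicate 3 (-0.86). Clec4a2 read 175, 238 and 141 in lung and 195, 509 and 559 in lymph node. These groups overlapped, and the call (adjusted p = 0.0394) was lost without lung replicate 1 (-1.06), lung replicate 3 (-0.90), lymph node replicate 2 (-0.87) or lymph node replicate 3 (-0.80). The mannose receptor Mrc1 (-0.59 ± 0.29) and dectin-1, Clec7a (-0.24 ± 0.29), were not called. None of the 6 Siglecs, sialic acid receptors, and none of the 4 galectins was called by limma. In each list 2 had an adjusted p under 0.05 but stayed under 2-fold. Siglecf, found on eosinophils and alveolar macrophages, was above lymph node on all lung arrays but under 2-fold (305 ± 31.2 in lung and 189 ± 8 in lymph node, 0.69 ± 0.18).

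Integrin chains were called in both directions. Of 16 measured chains 3 were higher in lung and 4 in lymph node, against 7.85% and 9.6% of all genes. The lung chains were Itgb1 (2.59-fold), the common beta chain of matrix receptors, Itga3 (2.88-fold) and Itga6 (2.26-fold), which bind laminins. Itgb1 read 5492, 5312 and 6063 in lung and 1988, 2173 and 2349.6 in lymph node. Itga6 was lost without lymph node replicate 3, at 0.99. The lymph node chains were the leukocyte integrins Itgb2 (4.39-fold), Itgb7 (3.37-fold), Itgal (3.06-fold) and Itgae (2.60-fold). Itgb2 and Itgal form LFA-1, and Itgb2 read 681, 760.2 and 543 in lung and 2799.5, 2953 and 2873 in lymph node. No array overlapped for these 7 chains. Among LFA-1 ligands, Icam2 was higher in lung, while Icam1 differed by 0.81 ± 0.13, under 2-fold with separate arrays, and passed with its probe sets averaged (1.07). Itgax, the CD11c chain of dendritic cells and alveolar macrophages, differed by -0.29 ± 0.10.

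Of 6 measured scaffolds of selectin ligands, 2 were higher in lymph node (Glycam1 and Selplg) and 2 in lung (Cd34 and Emcn, above). The shares of all genes were 9.6% and 7.85%. None of the enzymes that decorate the scaffolds was called. Glycam1, a secreted mucin that carries L-selectin ligands, read 309, 308 and 234 in lung and 4638, 4218 and 4063 in lymph node (15.3-fold, -3.93 ± 0.14, adjusted p = 2.81e-17). With its probe sets averaged the difference was 9.88-fold. It was the only one of 7 measured venule markers that was called. Fut7, the fucosyltransferase of selectin ligands, was 266 ± 33.2 in lung and 392 ± 12 in lymph node, and its difference of -0.57 ± 0.12 had separate arrays and an adjusted p of 0.000469 but stayed under 2-fold. The sulphotransferase Chst4, which acts in these venules, differed by -0.33 ± 0.17 (adjusted p = 0.133) and the vascular addressin Madcam1 by -0.37 ± 0.10. None of the 12 measured enzymes of selectin ligand synthesis was called, and their summed intensity was 5148 to 5290 in lung and 4832 to 5266 in lymph node. In limma, 3 of the 12 had an adjusted p under 0.05 but stayed under 2-fold. Selplg, the P-selectin ligand PSGL-1 on leukocytes, was 6.02-fold higher in lymph node with 653, 686 and 631 in lung and 3813, 4244 and 3807 in lymph node. The hyaluronan receptor Cd44 overlapped between tissues (3821 ± 837 in lung and 3549 ± 478 in lymph node).

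Promoter windows are shown for Cxcl15, which had the largest difference toward lung on the chosen probe sets (second to Sftpd with probe sets averaged), and for Cxcl13 and Glycam1, the leading chemokine and the leading venule mucin of lymph node. Each window is the 250 bases before the annotated start, 5′ to 3′ on the gene's strand, from RefSeq on build GRCm38.p6. Capitals mark TATAAA, the TATA box letters, and AGGAAG, a core bound by ETS factors, on either strand. The windows lie at chr5:90794284-90794533 (+ strand), chr5:95956689-95956938 (+ strand) and chr15:103565082-103565331 (- strand).
Cxcl15: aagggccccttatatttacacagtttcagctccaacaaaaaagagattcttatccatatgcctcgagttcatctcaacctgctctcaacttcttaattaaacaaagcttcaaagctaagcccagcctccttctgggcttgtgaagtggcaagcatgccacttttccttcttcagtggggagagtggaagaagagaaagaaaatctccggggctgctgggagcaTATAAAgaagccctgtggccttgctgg
Cxcl13: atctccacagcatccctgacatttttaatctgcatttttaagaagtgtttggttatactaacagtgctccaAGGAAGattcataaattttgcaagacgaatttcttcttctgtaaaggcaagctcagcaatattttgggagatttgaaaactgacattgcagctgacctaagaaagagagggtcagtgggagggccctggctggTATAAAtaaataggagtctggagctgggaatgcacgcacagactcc
Glycam1: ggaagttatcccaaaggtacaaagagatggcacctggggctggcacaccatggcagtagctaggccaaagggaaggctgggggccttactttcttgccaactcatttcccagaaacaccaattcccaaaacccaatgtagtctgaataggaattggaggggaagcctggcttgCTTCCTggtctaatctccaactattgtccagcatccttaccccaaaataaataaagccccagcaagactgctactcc
TATAAA began 27 bases before the start in Cxcl15 and 46 bases before it in Cxcl13. AGGAAG began 179 bases before the start of Cxcl13, and Glycam1 held it on the opposite strand from 77 bases before the start.

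The search covered 3 motifs on both strands, those marked above and the letters CTCAAG, a core of NKX2-1 sites, which none of the windows shown holds. No matches overlap in these windows. Both the motifs and the windows shown were chosen after values were seen. Of the 15 leading genes of each direction, 12 of the lung set and 11 of the lymph node set had a window. TATAAA was in a window of 2 and 4 of them, AGGAAG in 3 and 7, and CTCAAG in 4 and 1. The windows of Tek, Fzd4, Bmp4, Vegfa and Tnfrsf19 held none of the 3, nor did those of Cd48, Cxcl12 and Cxcr6. Over all called genes with a window (33 of 45 and 37 of 55), AGGAAG was in 33.3% of 42 windows for lung and 50% of 46 for lymph node, beside 33.7% for all genes tested and 29.5% of the 32851 windows in the table. TATAAA was in 14.3% and 13%, beside 10.5% and 12.4%. CTCAAG was in 19% and 6.52%, beside 11.2% and 13.3%. A match says only that the letters are present, and no test was made.

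The enzymes that build and degrade glycans had few called members. Over 9 lists with 150 measured enzymes and transporters, 3 (2%) were higher in lung and 9 (6%) in lymph node, against 7.85% and 9.6% of all genes. By contrast, 55 of 190 cytokine, adhesion and lectin genes (28.9%) were called. The lists were described by these counts and were not tested against each other.

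Sialyltransferases, which cap glycans with sialic acid, had 3 of 18 members called, a share near the 17.5% of all genes. St6gal1, which makes the alpha2,6-linked sialic acid that Cd22 binds, read 376, 402 and 324 in lung and 854, 819 and 997 in lymph node (2.42-fold, adjusted p = 4.64e-08), and its call was lost with quantile normalization (-0.99). St8sia4, a polysialyltransferase, was 2.18-fold higher in lymph node, and its call was lost with quantile normalization (-0.81) or without lung replicate 3 (-0.99). St6galnac2, which acts on O-glycans, was 2.27-fold higher in lung with 293, 266 and 275 against 141, 119 and 110.5. None of the 6 alpha2,3-sialyltransferases was called by limma, with 2 at an adjusted p under 0.05 but under 2-fold. The nearest was St3gal2 (0.89 ± 0.17), which passed without lung replicate 2 (1.02). Cmah, which converts N-acetyl to N-glycolyl neuraminic acid, read 233, 271 and 249 in lung and 563, 635 and 499 in lymph node (2.25-fold), the only one of 29 nucleotide sugar genes called. Npl, which breaks down free sialic acid, was 2.02-fold higher in lymph node, on no list and so near the threshold that 7 of 17 alternatives ended its call.

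Among chain-extending enzymes, B4galt4, a beta1,4-galactosyltransferase, was higher in lung. It read 968, 731 and 1068 in lung and 182, 195 and 209 in lymph node (4.68-fold, 2.23 ± 0.15, adjusted p = 4.28e-12), while the other measured family members, B4galt1, B4galt2, B4galt3, B4galt5 and B4galt6, differed by -0.16 to 0.12 and were not called. B3gnt5, which starts the lacto series of glycolipids, was 2.37-fold higher in lymph node at 128 ± 13.9 in lung and 301 ± 19.9 in lymph node. None of the 11 fucosyltransferases, 14 N-glycan genes or 8 O-glycan initiation genes was called by limma. All stayed under 2-fold, with 4, 4 and 6 of them at an adjusted p under 0.05 (4, 5 and 6 unadjusted). Among the last, Galnt7 (-0.88 ± 0.14) and Galnt1 (-0.78 ± 0.19) were lower in lung with separate arrays but under 2-fold. Galnt7 was called without lymph node replicate 3 (-1.01).

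Of 21 measured glycolipid genes, 4 were higher in lymph node and none in lung, so that the share called in either direction was near the 17.5% of all genes. Ugcg makes glucosylceramide, the first step of most glycosphingolipids, and read 422, 349 and 382 in lung and 1089, 1028 and 938 in lymph node (2.65-fold). B4galnt1, which makes complex gangliosides, read 347, 365 and 338 and 1380.5, 1135 and 1308 (3.63-fold, adjusted p = 1.93e-11). Neither gene overlapped between tissues. Gm2a, the activator protein for ganglioside breakdown, was 2.53-fold higher with one high lymph node array (1140.5, 1286 and 1881), and B3gnt5 was the fourth. Lysosomal hydrolases had 2 of 22 called, both higher in lymph node, a share near the 9.6% of all genes. They were the alpha-mannosidase Man2b1 (2.32-fold) and the protective protein Ctsa (2.03-fold). Man2b1 was lost with quantile normalization (-0.84). Ctsa was lost with it (-0.75) and without lung replicate 3 (-0.85) or lymph node replicate 3 (-0.95). Gusb (-0.94 ± 0.14) and Glb1 (-0.91 ± 0.15) stayed under 2-fold with separate arrays, and both passed without lung replicate 2 (-1.05 and -1.03).

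Glycosaminoglycan enzymes had 1 call among 23, against 17.5% of all genes. Hs2st1, the heparan sulphate 2-O-sulphotransferase, read 1567, 1655 and 1386 in lung and 591, 609 and 612 in lymph node (2.54-fold, adjusted p = 1.83e-12), and 4.20-fold with its probe sets averaged. Ext1 (0.77 ± 0.15) and Hs3st1 (0.71 ± 0.14), enzymes of the same chains, stayed under 2-fold. Of 4 measured small leucine-rich proteoglycans of matrix, 1 was higher in lung and 1 in lymph node. Over all 23 measured proteoglycans, 1 was higher in lung and 2 in lymph node, against 7.85% and 9.6% of all genes. Bgn, biglycan, read 8589, 8419 and 8242 in lung and 2449, 2437 and 3076 in lymph node (3.19-fold). Fmod, fibromodulin, was 2.92-fold higher in lymph node at 219 ± 7.1 in lung and 642 ± 83.9 in lymph node. Dcn, decorin, overlapped between tissues (5268 ± 1104 in lung and 6614 ± 583 in lymph node), and Lum, lumican, was 421 ± 70.3 in lung and 844 ± 371 in lymph node with overlap (-0.90 ± 0.30). Lum was called without lung replicate 3 (-1.01) or lymph node replicate 1 (-1.33). Fbln5, fibulin 5 of elastic fibres, is no proteoglycan and on no list, and was 6.87-fold higher in lung with 1202, 785 and 1101 and 154, 138 and 151. None of the 12 measured heparan sulphate proteoglycans was called, all staying under 2-fold. In limma 5 of them had an adjusted p under 0.05 (6 unadjusted), Sdc1 having the widest difference at 0.75 ± 0.11.

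**Figure D4:**
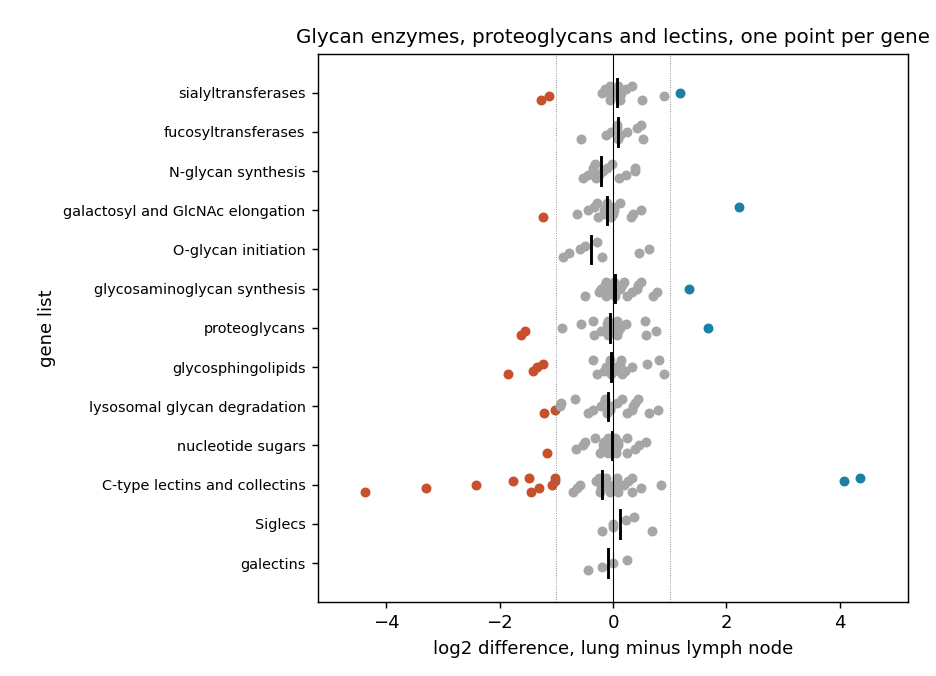
Difference on the log2 scale, lung minus lymph node (horizontal), for every measured gene of 13 lists of glycan enzymes, proteoglycans and lectins, with blue for called higher in lung, red for called higher in lymph node and grey for not called. Black bars are list medians and dotted lines mark 2-fold. The enzyme lists stay mostly within the dotted lines, while the C-type lectins spread from -4.37 (Cd209b) to 4.36 (Sftpd).

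Besides Cldn7, Fbln5 and Npl, the called genes on no list were Phactr1, Bsg, Ugt1a6a and Sipa1, named after their values were seen. Phactr1, an actin regulator, was 3.76-fold higher in lung, Bsg, basigin, 2.62-fold, and the glucuronosyltransferase Ugt1a6a 2.64-fold. Probe sets of the Ugt1a family may bind transcripts of related members. Sipa1, a Rap1 GTPase activator, was 2.27-fold higher in lymph node, with the call lost without lung replicate 2 (-0.89) or lymph node replicate 1 (-0.998) and with quantile normalization (-0.86).

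The called genes were also set among all 9 tissues. For 35 of the 45 genes higher in lung, lung had the highest mean of the 9 tissues, and for 30 all 3 lung arrays lay above all 24 other arrays. For 33 of the 55 genes higher in lymph node, lymph node had the highest mean, and for 21 its arrays lay above all 24 others. Genes called higher in a tissue were selected for a high level there, which in itself favours a high rank. The same counts over all genes are not given here, so these counts do not measure tissue specificity. Lung was the lowest of the 9 tissues for 5 of these 55 and lymph node the lowest for 4 of the 45. Spleen shared many of the lymph node levels: Cxcl13 averaged 2905 in spleen and 3523 in lymph node, and Cxcl12 5129 and 4349. Glycam1, Ccl8 and Cd209b averaged much less in spleen than in lymph node, at 216, 234 and 458 in spleen. Ltb averaged 4199 in spleen, 2669 in thymus and 2699 in bone marrow. On the lung side, some genes were shared with kidney or liver. Fbln5 averaged 1055 in kidney, Emcn 1136 and Vegfa 912, and Igfbp2 was higher in liver (3126) than in lung (1898). St6galnac2 had its highest level in testis (3722) and Igf1 in liver (4057), above both lung and lymph node.

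**Figure D5:**
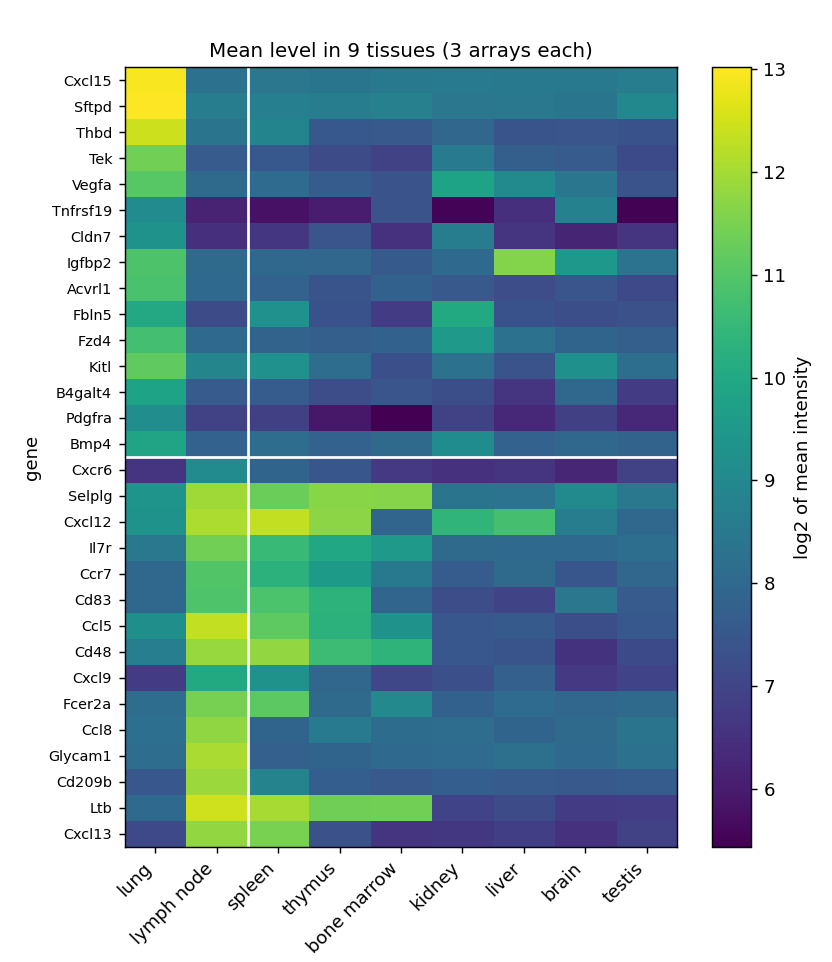
Log2 of the mean intensity of 3 arrays (colour) in each of 9 tissues (columns) for the 15 leading genes of each direction (rows), with lung and lymph node at the left of the white line. Cxcl15, Sftpd and Thbd are bright in lung alone, Glycam1 and Ccl8 in lymph node alone, and Cxcl13 in lymph node and spleen, while Ltb is bright in thymus and bone marrow as well.

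For 25 of the called genes the array held 26 other mouse probe sets. All 26 pointed in the same direction as the chosen one, and 20 were called. The smallest differences among them were for Igf1r, above, and for Pf4, at 0.34 on the log2 scale. Of 103 other probe sets of uncalled genes 9 were called. Besides Cd22 these were for Icam1 (1.32), Fgfr2 (1.32) and Gcnt2 (1.23), higher in lung, and for B3galt2 (-1.38), Itga4 (-1.28), Gnpda1 (-1.22), Il10ra (-1.17) and Klrc1 (-1.05), higher in lymph node, each with the sign of its chosen probe set. They are named here after their values were seen.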

How the data were processed

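Total RNA of lung and lymph node, 3 arrays each, was read on the custom 1-colour Affymetrix Glycov1 array, per the labels' protocols. The table the authors deposited gives linear intensities for 1813 probe sets on 27 arrays. For summarisation, background, scaling and detection calls the method is not given in the sources used here, so values were kept as deposited. Platform annotation gave 1563 probe sets 1 gene symbol, 2 several and 248 none, and 1 symbol was updated through RefSeq (GRCm38.p6). Of 702 mouse probe sets, control probes left out, the brightest on average (all 27 arrays) stood for each of 573 genes, and 839 human probe sets served as a scale for non-specific signal. Intensities under 16 (2 of the kept values) were raised to 16 and log2 taken.

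All 27 arrays entered 1 limma fit (version 3.58.1, R 4.3.3; lmFit, eBayes) with a coefficient for each tissue, so that they share an estimate of spread. The contrast was lung minus lymph node, and Benjamini-Hochberg adjustment ran over all 573 genes. A call needed an adjusted p under 0.05 and an absolute log2 difference of at least 1. The 15 genes with the largest called difference in each direction and no overlap were named, with called members of the lists, and uncalled members with values only. The members and lists were chosen with earlier results of these data known. On simulated data for this contrast with 573 genes, 100% of genes given log2 shifts of 1.5, 2 or 3 were called, 0% of those given 0.5 and 0% of 373 unchanged genes. No shift between 0.5 and 1.5 was simulated, so this result does not cover calls near the threshold of 1. The simulated spread was also somewhat smaller than the fitted one. The alternatives were 17 other settings, including quantile normalization, a low-level filter, averaged probe sets and leaving out each array. The number of arrays limits the precision.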

Additional observations from a re-analysis of the deposited data

Results flagged for a closer look

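Human probe sets on the same arrays were left out of the comparison, and some of them differed between the mouse tissues. Of 839, 19 (2.26%) were called by the same rule, 8 higher in lung and 11 higher in lymph node. Of the 11, 8 were for ribosomal protein genes, and over all 22 ribosomal protein probe sets the median difference was -0.74, with 19 below 0. The largest of them was RPS18 at -1.80 ± 0.21 (511 ± 49.2 in lung, 1772 ± 60.1 in lymph node, n = 3 each). The human VEGFA probe set was higher in lung by 2.82 ± 0.27, in the direction of mouse Vegfa (2.98). The human CCL5 probe set was higher in lung by 2.003 ± 0.17 (567 ± 111 against 141 ± 18.8), opposite to mouse Ccl5 (-3.18). These probe sets were named after their values were seen.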

How the results depend on the processing

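The 17 alternatives gave 30 to 47 genes higher in lung (45 as reported) and 42 to 57 higher in lymph node (55). The lowest counts, 30 and 42, came from a filter that dropped the 191 dimmest genes, which kept 28 of the called genes from being tested. Quantile normalization gave 45 and 45. Leaving out single arrays gave 43 to 47 and 53 to 57. Of the 100 called genes, 83 kept their call in every alternative that tested them, 17 lost it in at least 1, and none reversed. Beside the losses named with their genes, Pf4 was lost with quantile normalization (0.99), an offset of 16 (0.98), averaged probe sets (0.68) and array weights (0.95), Ly75 with the offset (-0.89) and array weights (-0.84), Cd209d with quantile normalization (-0.86), the offset (-0.98) and array weights (-0.96), and Clec4a2 with quantile normalization (-1.003). Npl kept between -0.98 and -0.83 where its call was lost. The cause was not tested. Another 15 listed genes were called only in an alternative, and Cd22 turned from 0.01 to -1.67 with averaged probe sets, in which its other probe set enters. The fold moved by over 1.5 times in 7 called genes, in each case with averaged probe sets. Arrays with the same title number did not deviate together (correlations of 0.07, -0.03 and -0.29 across genes), and 1 of 3 lung arrays correlated best with its own number. With the number as a replicate block the counts were 45 and 55, over all arrays and over the 6 arrays alone. Signal over background limits the folds of genes whose lower tissue lies among the human probe sets.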

Other observations

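Other human probe sets that were called included IGF1 (-1.78), ITGB2 (-1.67) and LTB (-1.60), higher in lymph node, and FZD2 (1.80), ITGA6 (1.38) and CXCL14 (1.28), higher in lung. Each had the sign of its mouse gene, at -2.14, -2.13, -4.45, 1.42, 1.18 and 1.93. CTNNB1, the signalling and adhesion protein beta-catenin, was 2471.6 ± 215 in lung and 1130.1 ± 32.0 in lymph node on its human probe set.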
